A study of Mus musculus with 5 samples.

Results

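The 33 genes described here mark the blood vessels of the spinal cord: 20 are genes of endothelial cells, 6 of pericytes and 7 of vascular smooth muscle cells. They were listed by symbol and found in the deposited count table through their Ensembl identifiers in the GRCm38 annotation. All 33 were among its 55471 identifiers, and all 33 were among the 16052 genes with enough counts to be tested. Polyadenylated RNA had been sequenced from spinal cord of male C57BL/6J mice aged 3 months, in the resting state. There were 2 libraries from mice without functional Lhx1os (Lhx1os -/-, here KO) and 3 from wild type mice (WT). The gene makes a long non-coding RNA. To end its transcription early, a synthetic polyadenylation signal followed by MAZ polymerase-destabilizing repeats was placed in its second exon with Cas9 and a single guide RNA. No label says how many founder animals the KO libraries trace back to. Lhx1os had 13 and 11 counts in the KO libraries, against 56, 66 and 51 in the WT libraries. Its fold change, KO over WT, was −2.13 on the log2 scale (SE 0.28). The adjusted p was 0.0589 in edgeR's quasi-likelihood test and 0.00294 in DESeq2.

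Gene totals ran from 15973063 to 19437533 counts per library, and the number of genes with a count from 21540 to 21913. Levels are given as CPM (counts scaled to a fixed library total), scaled by edgeR's TMM factors, with the KO libraries in the order of their replicate numbers, 1 and 2, and the WT libraries likewise, 1, 2 and 3. Errors of means are standard deviations (SD). Markers of spinal cord tissue were high in every library: 5 oligodendrocyte genes summed to between 29333 and 34561 CPM, and 6 neuronal genes to between 3439.6 and 3650.8 CPM. The vascular genes together took 0.143% and 0.0975% of the counts in KO, against 0.109%, 0.128% and 0.136% in WT.

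The endothelial cells of the central nervous system form the blood-brain and blood-spinal cord barrier. They are joined by tight junctions, carry few vesicles and rely on transporters to move nutrients in and drugs out. Pericytes sit in the capillary wall under the same basement membrane, depend on PDGF signals from the endothelium and help to maintain the barrier. Smooth muscle cells ring the arteries and arterioles and set their width by contraction. In bulk tissue, fewer cells of a type and less RNA per cell cannot be told apart.

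Vascular gene levels did not separate the genotypes, but they differed between the KO libraries. By the sum of the 33 genes, KO replicate 1 was the highest of all 5 libraries and KO replicate 2 the lowest. The summed level of the 33 genes was 1430 and 975 CPM in KO, with a mean of 1203 ± 322 (SD, n = 2), and 1091, 1284 and 1358 CPM in WT, with a mean of 1244 ± 138 (SD, n = 3). KO replicate 2 thus lay below every WT library and KO replicate 1 above every WT library. The 3 cell classes shared this order at the low end. Endothelial genes summed to 1053 and 721 CPM in KO, against 793, 931 and 987 CPM in WT. Pericyte genes summed to 234 and 156 CPM in KO, against 189, 225 and 236 CPM in WT. Smooth muscle genes summed to 143 and 97.9 CPM in KO, against 109, 128 and 135 CPM in WT. For the pericyte sum alone, WT replicate 3 lay slightly above KO replicate 1.

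**Figure D1:**
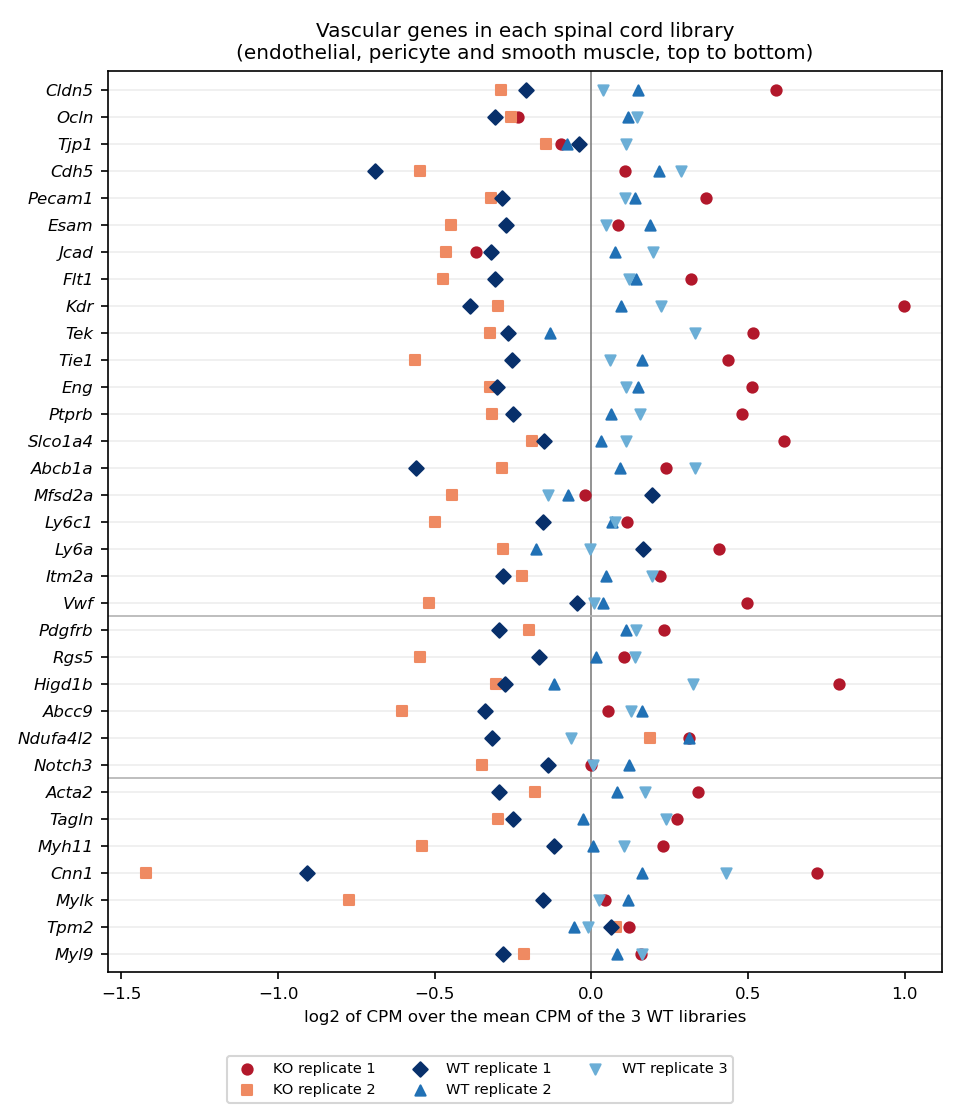
Level of each of the 33 vascular genes in each library, as log2 of its CPM over the mean CPM of the 3 WT libraries; each symbol is a library. KO replicate 1 is the highest and KO replicate 2 the lowest library for 15 of the 33 genes, a WT library stands at one end or both for the other 18, and Kdr in KO replicate 1 has 23.5 CPM against 9.56 CPM in KO replicate 2.

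All 33 genes had more CPM in KO replicate 1 than in KO replicate 2, where the ratio of these libraries over all genes tested had a median of 1.0. The members' ratios ran from 1.02 for Ocln to 4.42 for Cnn1, with a median of 1.58, and 19 of the 33 exceeded 1.5, against 5.26% of all genes tested. The same 19 lay above 1.52, the 95th percentile of all genes. For 28 genes the exact 95% interval of the ratio, which covers counting error only, lay above 1. These values compare a pair of libraries of the same genotype and carry no test. KO replicate 1 was the highest of the 5 libraries for 21 of the 33 genes and KO replicate 2 the lowest for 23, WT replicate 1 being the lowest for 9 more and WT replicate 2 for Tpm2. Both held together for 15 genes, and for the other 18 at least one end was a WT library. Over all genes tested, each library was the highest for 17.9% to 21.3% of genes and the lowest for 17.8% to 22.0%.

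**Figure D2:**
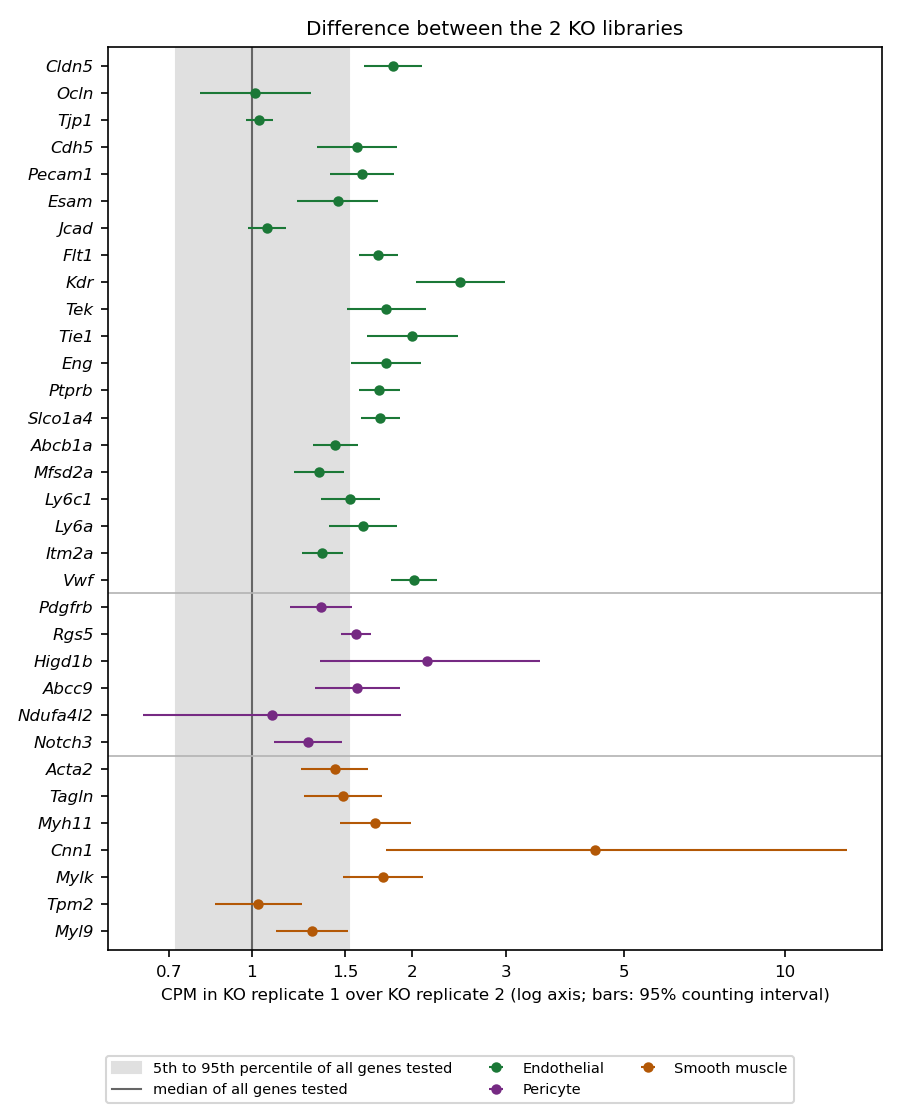
CPM in KO replicate 1 over KO replicate 2 for each vascular gene, on a log axis, with exact 95% counting intervals; the grey band spans the 5th to the 95th percentile of all genes tested (0.720 to 1.52). Most endothelial genes lie right of the band, while Ocln, Tjp1, Jcad, Ndufa4l2 and Tpm2 lie near 1.

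The balance between vessel cell classes varied far less than their amount. Per kilobase of exon, the summed level of the pericyte and smooth muscle genes was 0.418 and 0.427 of the endothelial sum in KO, against 0.413, 0.433 and 0.443 in WT. For pericyte genes alone the share was 0.198 and 0.191 in KO, against 0.202, 0.210 and 0.213 in WT. For smooth muscle genes it was 0.220 and 0.236 in KO, against 0.210, 0.224 and 0.230 in WT. These sums are weighted towards the most abundant genes. The further pericyte and endothelial genes described below did not keep such a steady balance. Per kilobase, the further pericyte genes summed to 115 and 96.3 in KO, against 81.0, 125 and 138 in WT. The further endothelial genes summed to 121 and 97.2 in KO, against 98.5, 112 and 119 in WT. In level per kilobase, averaged over the 5 libraries, the leading members were the membrane protein gene Itm2a (36.1 CPM per kb), the pericyte gene Rgs5 (29.4), the claudin gene Cldn5 (22.4), Mfsd2a (20.97) and Tjp1 (20.5). Cnn1 (0.369), Ndufa4l2 (1.46) and Kdr (1.51) stood lowest.

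Between the genotypes, none of the 33 genes passed the test. In edgeR's quasi-likelihood test with Benjamini-Hochberg adjustment over all 16052 genes, 0 of the 33 passed at 0.05, where 0.0187% of all genes tested did; DESeq2 and limma-voom also passed 0. At an unadjusted p under 0.05 there was 1 member, Jcad, where 7.57% of all genes tested lay under that value. Adjusted p-values of the members ran from 0.519 to 1.0. Of the 33 log2 fold changes (KO over WT) 18 were positive and 15 negative, from −0.41 for Jcad to 0.49 for Kdr. Their median was 0.02, beside 0.00 for all genes tested. By class, the median was 0.02 for endothelial, −0.07 for pericyte and 0.02 for smooth muscle genes. Groups did not overlap for 3 members: for Jcad and Tjp1 each KO value lay below each WT value, as for 12% of all genes tested, and for Tpm2 above it, as for 12.9%.

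Standard errors of the log2 fold changes ran from 0.07 for Tjp1 to 0.57 for Cnn1, with a median of 0.18. The 95% interval of the log2 fold change held 0 for 32 of the 33 genes, Jcad being the exception without adjustment. For 30 genes the whole interval lay within a 2-fold change in either direction. The other intervals reached 1.17 for Kdr, 1.11 for Higd1b and from −1.24 to 1.28 for Cnn1. The direction of the class medians rested on which KO library was used. Without KO replicate 1, all 20 endothelial genes had negative log2 fold changes (median −0.32), as had 5 of 6 pericyte genes (median −0.33) and 6 of 7 smooth muscle genes (median −0.30). Without KO replicate 2, 16 of the 20 endothelial genes (median 0.34), 5 of the 6 pericyte genes (median 0.17) and all 7 smooth muscle genes (median 0.23) had positive values. Each of these fits has a single KO library, which is assumed to vary like the WT libraries.

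**Figure D3:**
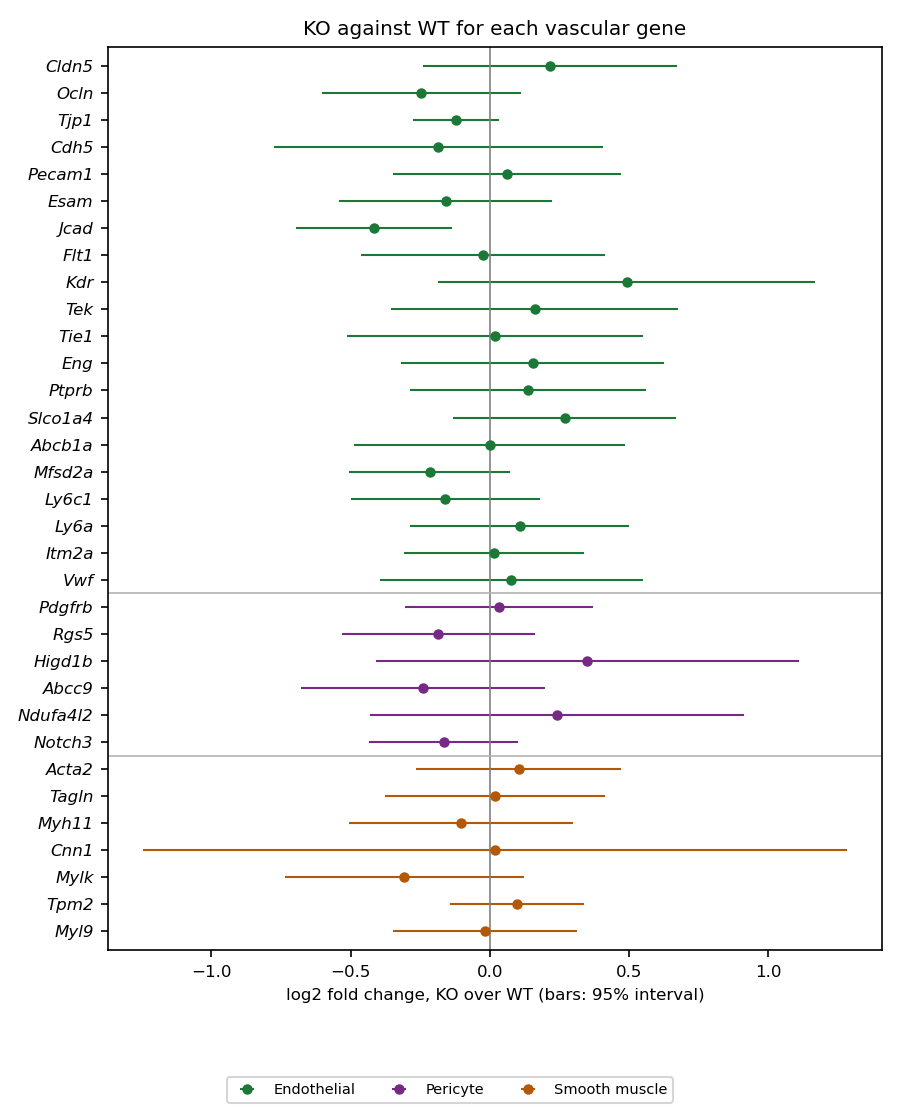
Log2 fold change of each vascular gene, KO over WT, with its 95% interval from edgeR's fit over all genes; n = 2 KO and 3 WT libraries. Intervals hold 0 for 32 of the 33 genes and are widest for Cnn1 (−1.24 to 1.28).

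Among the genes of endothelial junctions, Cldn5, Pecam1, Cdh5 and Esam were each higher in KO replicate 1 than in KO replicate 2. Cldn5 encodes claudin-5, the chief claudin of the barrier's tight junctions. It had 44.8 and 24.3 CPM in KO, against 25.7, 32.9 and 30.5 CPM in WT, and a log2 fold change of 0.22 (SE 0.21; edgeR adjusted p = 0.823). KO replicate 1 was the highest and KO replicate 2 the lowest library for this gene, so the WT values lay inside the KO range. Pecam1, the adhesion molecule CD31, had 34.0 and 21.1 CPM in KO, against 21.7, 29.1 and 28.4 CPM in WT. Cdh5, the vascular endothelial cadherin of adherens junctions, had 22.0 and 13.9 CPM in KO, against 12.6, 23.7 and 24.9 CPM in WT. Esam, an endothelial adhesion molecule of the immunoglobulin superfamily, had 19.7 and 13.6 CPM in KO, against 15.4, 21.2 and 19.2 CPM in WT. For Cdh5 the lowest library was WT replicate 1, and the WT libraries alone spanned a 1.97-fold range. The log2 fold changes were 0.06 (SE 0.18) for Pecam1, −0.18 (SE 0.27) for Cdh5 and −0.16 (SE 0.17) for Esam.

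Ocln, Tjp1 and Jcad differed little between the KO libraries. Ocln encodes occludin, a tight junction protein, and had 8.89 and 8.75 CPM in KO, against 8.45, 11.3 and 11.6 CPM in WT. Its KO values lay between WT replicate 1 and the other WT libraries, with a log2 fold change of −0.25 (SE 0.16). Tjp1 encodes ZO-1, a scaffold that links junctions to actin and is also made by many cells outside vessels. It was the member with the most counts, at 154.7 and 149.5 CPM in KO, against 161.0, 156.7 and 178.6 CPM in WT. Its groups did not overlap, yet the log2 fold change was −0.12 (SE 0.07; edgeR adjusted p = 0.721).

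Jcad, which encodes a protein of endothelial cell junctions, had the smallest p-value of the members. It had 76.1 and 71.1 CPM in KO, against 78.6, 103.4 and 112.5 CPM in WT. Both KO libraries lay below all WT libraries, with WT replicate 1 just above them. The means were 73.6 ± 3.52 CPM in KO (SD, n = 2) and 98.2 ± 17.5 CPM in WT (SD, n = 3), and the log2 fold change was −0.41 (SE 0.13; 95% interval −0.70 to −0.13). Its unadjusted p was 0.00808, and adjusted over all genes it was 0.519 in edgeR, 0.594 in limma-voom and 0.154 in DESeq2, so it did not pass. Jcad passed in edgeR without the filter on low counts (adjusted p = 0.0306) and without WT replicate 1 (adjusted p = 0.0211). Over all alternatives its adjusted p ran from 0.0211 to 0.935. Relative to Pecam1, per kilobase, Jcad stood at 1.91 and 2.87 in KO, against 3.09, 3.03 and 3.37 in WT. The gap between the KO values of this ratio came mainly from Pecam1, at 34.0 and 21.1 CPM. Jcad itself differed by 1.07-fold between the KO libraries, unlike most endothelial members.

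KO replicate 1 was the highest library for all 6 genes of endothelial growth factor signalling, and KO replicate 2 the lowest for all but Kdr. Kdr encodes VEGFR2, the main signalling receptor for vascular endothelial growth factor A. It had 23.5 and 9.56 CPM in KO, against 8.98, 12.6 and 13.7 CPM in WT, so that a single KO library lay above WT and the other inside the WT range. Its log2 fold change of 0.49 (SE 0.30; edgeR adjusted p = 0.732) turned to −0.30 without KO replicate 1 and was 0.996 without KO replicate 2. Flt1 encodes VEGFR1, which binds the same factor with little signalling of its own. It had 89.6 and 51.8 CPM in KO, against 58.1, 79.4 and 78.2 CPM in WT (log2 fold change −0.02, SE 0.20). Kdr over Flt1, per kilobase, was 0.392 and 0.276 in KO, against 0.231, 0.237 and 0.263 in WT. KO replicate 1 stood highest in this ratio too.

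Tek and Tie1 encode the angiopoietin receptor Tie2 and its co-receptor. Tek had 24.04 and 13.4 CPM in KO, against 13.98, 15.3 and 21.1 CPM in WT, with a log2 fold change of 0.16 (SE 0.23). Tie1 had 19.7 and 9.88 CPM in KO, against 12.3, 16.3 and 15.2 CPM in WT, with a log2 fold change of 0.02 (SE 0.24). Both genes had their lowest level in KO replicate 2 and their highest in KO replicate 1. Ptprb, the vascular endothelial phosphatase that acts on Tie2 and on the cadherin of Cdh5, had 84.5 and 48.6 CPM in KO, against 50.9, 63.3 and 67.4 CPM in WT. Eng encodes endoglin, a co-receptor for TGF-beta family ligands. Its level was 30.7 and 17.2 CPM in KO, against 17.4, 23.9 and 23.2 CPM in WT. For Ptprb and Eng the log2 fold changes were 0.14 (SE 0.19) and 0.15 (SE 0.21).

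Transporter genes of the barrier were less uniform. Slco1a4 encodes an organic anion transporter, and its 93.7 and 53.8 CPM in KO spanned the 55.1, 62.5 and 66.1 CPM of WT (log2 fold change 0.27, SE 0.18). Abcb1a encodes the drug efflux pump P-glycoprotein. It had 61.8 and 43.0 CPM in KO, against 35.5, 55.8 and 65.9 CPM in WT, with equal means of 52.4 CPM. Mfsd2a encodes the transporter that brings lysophosphatidylcholine with docosahexaenoic acid into the brain and restrains vesicle transport. It had 49.3 and 36.8 CPM in KO, against 57.1, 47.5 and 45.4 CPM in WT. Mfsd2a was the only member with its highest level in WT replicate 1, and its log2 fold change was −0.22 (SE 0.13; edgeR adjusted p = 0.730).

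The remaining endothelial genes encode surface or secreted proteins. Vwf encodes von Willebrand factor, which binds platelets. It had 75.3 and 37.3 CPM in KO, against 51.8, 54.8 and 53.7 CPM in WT. The WT libraries differed by 1.06-fold for Vwf and the KO libraries by 2.02-fold (95% counting interval 1.83 to 2.23). Itm2a had 73.0 and 53.8 CPM in KO, against 51.6, 64.9 and 71.8 CPM in WT. Ly6c1 and Ly6a encode small membrane-anchored proteins of the Ly6 family, which are also found on blood cells. Ly6c1 had 38.4 and 25.1 CPM in KO, against 31.8, 37.1 and 37.4 CPM in WT, and Ly6a had 29.7 and 18.4 CPM in KO, against 25.1, 19.8 and 22.3 CPM in WT. The 4 log2 fold changes lay between −0.16 for Ly6c1 and 0.11 for Ly6a.

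Of the 13 endothelial genes with a promoter sequence in the RefSeq table (GRCm38.p6), 7 held the core motif of ETS factors, a family with members such as Erg and Fli1 that endothelial cells use, in the 250 bases before the annotated start. The letters searched were AGGAAG or, on the other strand, CTTCCT, and 32.3% of the 27025 genes in that table hold it. It was also in 1 of 5 smooth muscle genes (Tpm2) and in 0 of 3 pericyte genes. The matches of the VEGF receptor gene Flt1 and the co-receptor gene Eng are shown as examples. Both genes were highest in KO replicate 1 and lowest in KO replicate 2, as were Tie1, Slco1a4 and Ly6c1, which also held a match. The other genes with a match did not show this pattern: Abcb1a and Itm2a were lowest in WT replicate 1 and Tpm2 in WT replicate 2. Of all 33 members, with or without a match, 15 showed it. A relation of the motif to these levels was not tested. Capitals mark the motif, and each match is written 5′ to 3′ on the strand of its gene. The Flt1 matches start 129 and 53 bases before its start, at chr5:147726125-147726150 and chr5:147726049-147726074 on the minus strand, and the Eng matches start 52 and 6 bases before its start, at chr2:32646533-32646558 and chr2:32646579-32646604 on the plus strand. All 4 motifs lie outside the annotated exons of their gene, though the stretch printed for the nearer Eng match runs past the annotated start of Eng.
Flt1, farther match: cccctccgggAGGAAGaagagggtag
Flt1, nearer match: gtgccggggtAGGAAGtgggctgggg
Eng, farther match: gcctgtggcaCTTCCTctactcgcct
Eng, nearer match: cccttctctaAGGAAGcgcatttcct
A match describes letters and shows no binding.

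Pericyte genes had their lowest level in KO replicate 2 or WT replicate 1. Pdgfrb encodes the PDGF receptor on which pericytes depend. It had 32.3 and 23.9 CPM in KO, against 22.4, 29.7 and 30.4 CPM in WT, with a log2 fold change of 0.03 (SE 0.15). Rgs5, a regulator of G protein signalling, was the most abundant mural gene, at 150.8 and 96.1 CPM in KO, against 125.0, 141.8 and 154.6 CPM in WT. Its log2 fold change was −0.19 (SE 0.16), and KO replicate 2 was the library that stood apart. Notch3, the Notch receptor of mural cells, had 26.4 and 20.7 CPM in KO, against 23.98, 28.7 and 26.5 CPM in WT. Abcc9 encodes a subunit of the ATP-sensitive potassium channel. It had 19.1 and 12.1 CPM in KO, against 14.6, 20.6 and 20.1 CPM in WT. For Notch3 and Abcc9 the log2 fold changes were −0.17 (SE 0.12) and −0.24 (SE 0.20), with edgeR adjusted p-values of 0.770 and 0.793.

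The other pericyte genes were scarce. Higd1b, of the hypoxia-inducible domain family, had 61 and 28 counts in KO, against 30, 39 and 44 in WT. Ndufa4l2, related to a subunit of the respiratory chain, had 30 and 27 counts in KO, against 20, 36 and 23 in WT. At this depth their fold changes could not be told from 0, with log2 values of 0.35 (SE 0.34) and 0.24 (SE 0.30).

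All 7 smooth muscle genes were higher in KO replicate 1 than in KO replicate 2, and 5 of the 7 were highest in KO replicate 1. Acta2 encodes smooth muscle alpha-actin, the main actin of arterial walls. It had 28.8 and 20.1 CPM in KO, against 18.6, 24.1 and 25.7 CPM in WT (log2 fold change 0.10, SE 0.17). Tagln encodes the actin-binding protein SM22, and had 22.1 and 14.9 CPM in KO, against 15.4, 17.9 and 21.5 CPM in WT. Myh11, the smooth muscle myosin heavy chain, had 29.0 and 17.0 CPM in KO, against 22.8, 24.8 and 26.6 CPM in WT. All 3 genes were highest in KO replicate 1. Mylk encodes the kinase that starts contraction by phosphorylating the myosin light chain. It had 22.9 and 13 CPM in KO, against 19.99, 24.1 and 22.6 CPM in WT. The fold change of Mylk, −0.31 on the log2 scale (SE 0.19), was the most negative of the class. Myl9, the gene of that light chain, had 23.9 and 18.4 CPM in KO, against 17.6, 22.7 and 23.9 CPM in WT. Cnn1, the gene of calponin, an actin-binding regulator of contraction, had 27 and 6 counts in KO, against 9, 22 and 22 in WT. Its 4.42-fold ratio between the KO libraries had a counting interval of 1.79 to 13.1.

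Tpm2 stood apart from the other smooth muscle genes. It encodes beta-tropomyosin, a filament protein that skeletal muscle also makes. Its levels were 14.5 and 14.1 CPM in KO, against 13.9, 12.8 and 13.2 CPM in WT. Both KO libraries were above all WT libraries, by a log2 fold change of 0.10 (SE 0.11; edgeR adjusted p = 0.848), and the KO libraries differed by 1.03-fold. A list of 10 skeletal muscle genes, by contrast, summed to 19.8 and 7.19 CPM in KO, against 7.68, 7.51 and 3.88 CPM in WT. None of the 10 was at 0 in every library, and Myh1, Myh2 and Tnnc2 had too few counts to be tested. The 2 of smallest p were the myosin gene Myh4 (2.36, SE 0.81; edgeR adjusted p = 0.587) and the creatine kinase gene Ckm (1.54, SE 0.73; edgeR adjusted p = 0.682). The part of muscle tissue in the high smooth muscle values of KO replicate 1 was not tested.

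Serum response factor binds the CArG box of many smooth muscle promoters. Of the 5 smooth muscle genes with a RefSeq promoter sequence, 2 held a CArG-like match in the 250 bases before the start, taken as CC, then 6 bases of which at least 5 are A or T, then GG. Since this pattern reads the same on both strands, a single search covered both. Such a match is present in 9.78% of all genes in the table and in 4 of 13 endothelial and 0 of 3 pericyte genes. The matches of Acta2 and Myl9 are shown because they are the smooth muscle genes with a match, and both encode parts of the contractile apparatus; capitals mark the match. They start 84 and 34 bases before the RefSeq start of Acta2, at chr19:34255438-34255467 and chr19:34255388-34255417 on the minus strand, in what GENCODE M21 annotates as an exon of that gene. Those of Myl9 start 161 and 99 bases before its start, at chr2:156775293-156775322 and chr2:156775355-156775384 on the plus strand, outside its exons.
Acta2, farther match: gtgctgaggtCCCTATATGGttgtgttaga
Acta2, nearer match: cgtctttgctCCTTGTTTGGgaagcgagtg
Myl9, farther match: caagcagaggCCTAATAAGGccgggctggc
Myl9, nearer match: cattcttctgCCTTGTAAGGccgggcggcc
The farther Myl9 match is the only one of these whose 6 middle bases are all A or T, a form held by 1.62% of all genes in the table.

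Lists of vascular genes outside the 33 differed in how far KO replicate 1 lay above KO replicate 2. Of 24 further endothelial genes 23 had more CPM in KO replicate 1 than in KO replicate 2, with a median ratio of 1.57. In edgeR 0 of them passed over all genes, and the median log2 fold change was −0.03. An unadjusted p under 0.05 was found for 2 of the 24, beside 7.57% of all genes tested. These 2 were Egfl7, a secreted endothelial factor (0.33, SE 0.11; adjusted p = 0.560), and the endothelial lectin gene Clec14a (0.62, SE 0.25; adjusted p = 0.644). Clec14a had 15.9 and 7.56 CPM in KO, against 7.68, 7.66 and 7.70 CPM in WT, so KO replicate 1 alone was high. Of 15 further pericyte genes 14 were higher in KO replicate 1 than in KO replicate 2, with a median ratio of 1.26, and of 13 tested smooth muscle genes 12 were, with a median ratio of 1.17. The further pericyte genes summed to 363 and 304 CPM in KO, against 272, 379 and 401 CPM in WT, so WT replicate 1 and not KO replicate 2 was lowest, and KO replicate 1 lay below WT replicates 2 and 3. The further smooth muscle genes summed to 334 and 299 CPM in KO, against 304, 335 and 339 CPM in WT. Further barrier transport genes summed to 1077 and 982 CPM in KO, against 1009, 1087 and 1059 CPM in WT. In both of these sums KO replicate 2 was lowest and a WT library highest. The median ratio was 1.39 for 8 arterial genes (7 higher in KO replicate 1), 1.14 for 15 barrier transport genes (14 higher), 1.11 for 12 basement membrane genes (7 higher), 1.07 for 16 angiogenic signalling genes (11 higher), 1.03 for 14 Wnt and barrier genes (10 higher) and 1.01 for 5 tested venous genes (3 higher). None of the 28 further pericyte and smooth muscle genes passed in edgeR, DESeq2 or limma-voom. An unadjusted p under 0.05 was found for 2 of them, beside 7.57% of all genes tested: Mcam (0.31, SE 0.13) and Synpo2 (−0.27, SE 0.10). Next in these lists stood Gper1 (−0.37, SE 0.23) and Tinagl1 (−0.56, SE 0.26).

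Among 15 more barrier transport genes, Slc2a1, which encodes the glucose transporter GLUT1, had the smallest p-value. It had 160.0 and 139.7 CPM in KO, against 187.0, 236.8 and 197.1 CPM in WT, with a log2 fold change of −0.47 (SE 0.10). Both KO libraries lay below all WT libraries, as for 12% of all genes tested. It did not pass in edgeR (adjusted p = 0.270) and passed in DESeq2 (adjusted p = 0.00172), as did 39 of the 16052 genes tested in edgeR. The transferrin receptor gene Tfrc (0.22, SE 0.08; edgeR adjusted p = 0.597) and the efflux pump gene Abcg2 (−0.28, SE 0.11; edgeR adjusted p = 0.639) did not pass either, and Abcg2 was picked after its values were seen. Slc2a1, Tfrc and Abcg2 were the 3 of the 15 with an unadjusted p under 0.05 in edgeR, beside 7.57% of all genes tested. In edgeR, 0 of the 14 Wnt and barrier genes, 8 arterial, 5 tested venous, 16 angiogenic signalling and 12 basement membrane genes passed, nor did any in DESeq2 or limma-voom. In those lists, an unadjusted p under 0.05 was found for Bmx (0.91, SE 0.38) among the arterial genes, and Notch1 (0.30, SE 0.08) and the angiopoietin gene Angpt1 (−0.46, SE 0.17) among the signalling genes. Of all genes tested, 7.57% lay under that value. The other genes of smallest p per list were Nkd1 (0.18, SE 0.08) and Fzd4 (−0.20, SE 0.10) for Wnt, Gkn3 (0.46, SE 0.29) for arterial, Nr2f2 (−0.20, SE 0.18) and Vcam1 (−0.08, SE 0.09) for venous, and Lamc1 (−0.19, SE 0.09) and Nid1 (−0.23, SE 0.12) for basement membrane genes.

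The order of the libraries by the 33 genes was not that of meningeal fibroblast, blood cell, Schwann cell or astrocyte genes. Meningeal fibroblast genes (15 in the list) summed to 371 and 400 CPM in KO, against 290, 580 and 706 CPM in WT, with WT replicate 1 lowest. All 15 had negative log2 fold changes (median −0.44), and 0 passed in edgeR, DESeq2 or limma-voom. An unadjusted p under 0.05 was found for 1, Mgp (−0.45, SE 0.13), beside 7.57% of all genes tested. Genes of blood cells (9 in the list) summed to 241 and 339 CPM in KO, against 274, 349 and 233 CPM in WT. Blood cell genes were thus lower in KO replicate 1, the library with the highest sum of the 33 genes, than in KO replicate 2. Schwann cell genes (5 in the list) summed to 144.5 and 251 CPM in KO, against 97.6, 220 and 289 CPM in WT. Their log2 fold changes ran from −1.17 to 0.53, and 0 passed in edgeR. For 1 of the 5 the unadjusted p in edgeR was under 0.05, beside 7.57% of all genes tested. No gene of these 3 lists was at 0 in every library. Astrocyte genes, with 5386.8 and 5194 CPM in KO and 5604, 5062 and 5795 CPM in WT, differed by 1.04-fold between the KO libraries. Skeletal muscle genes, given above, shared the high end of the vascular order, KO replicate 1 being highest for all 7 tested. The part of these tissues in the vascular values was not tested.

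**Figure D4:**
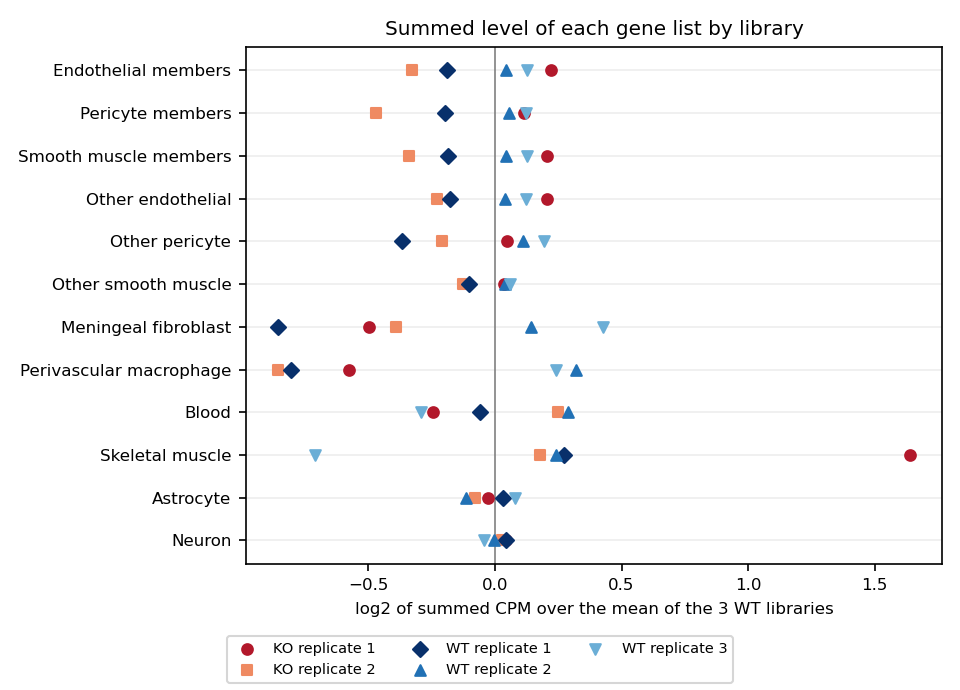
Summed CPM of the vascular genes and of other cell type lists in each library, as log2 over the mean of the 3 WT libraries; each symbol is a library. In the endothelial, pericyte and smooth muscle lists drawn, members and others, KO replicate 2 and WT replicate 1 are the lowest pair of libraries, whereas blood cell genes are higher in KO replicate 2 (339 CPM) than in KO replicate 1 (241 CPM).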

How the data were processed

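The authors deposited raw counts of reads per gene, without normalization, in a table covering all 5 libraries. Per the submitters' processing notes, cutadapt, Trimmomatic, STAR 2.5.2b, HTSeq and GRCm38 were used; the annotation release and strand setting used are not given in the sources at hand. Per the labels' protocols, libraries came from powdered frozen tissue with a stranded mRNA kit. No label says that libraries came from separate litters or days. The p-values set the difference between genotypes against the spread between these samples. Effects of litter or day cannot be separated from either.

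Symbols and exon lengths came from GENCODE M21. Genes were kept by filterByExpr (minimum count 10, minimum total 15), scaled by TMM and compared by the quasi-likelihood F test of edgeR 4.0.16 under R 4.3.3, KO over WT, without covariates, at a Benjamini-Hochberg threshold of 0.05. DESeq2 1.42.0 and limma 3.58.1 were alternatives. The common biological coefficient of variation was 7.48%. In counts simulated for 16052 genes at these library sizes, the test recovered 60.0% of genes changed 1.5-fold and 86.9% of those changed 2-fold. It made 7 false calls. Each gene was drawn independently, at the spread typical of its abundance. The simulation thus held no shift shared by many genes, and its recovery need not hold for the vascular genes. Libraries of a group differed beyond sampling noise (chi-square per degree of freedom 4.23 to 7.98), so none was a copy. Members and lists were chosen with earlier results of these data known. Named genes were all members and, of the vascular, perivascular macrophage and skeletal muscle lists, any that passed and otherwise the 2 of smallest p per list. The meningeal fibroblast list has only Mgp named. No gene is named from the blood, Schwann cell, astrocyte, neuronal or oligodendrocyte lists. Lhx1os checked the labels.

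Without a strand setting, counts of genes that share exon bases with an antisense gene are uncertain, chiefly Tagln (1241 bases with Gm48529), Abcb1a (553 with Gm42686), Mylk (548 with E130310I04Rik) and Notch3 (488 with Gm17276). Ly6c1, Ly6a, Abcb1a, Acta2 and Tpm2 have close paralogs among which reads could be divided.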

Additional observations from a re-analysis of the deposited data

How the results depend on the processing

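Of the vascular genes, 0 passed in the edgeR test as reported, with DESeq2's size factors, with library totals, at a minimum count of 50, with robust dispersion, in limma-voom, in DESeq2 and with the replicate block. Without the filter on low counts 1 passed (Jcad), and leaving out single libraries gave 0 to 1 (Jcad, without WT replicate 1). Over all genes, 3 passed as reported, 6 with DESeq2's size factors, 96 without the low count filter, 12 with robust dispersion, 1 in limma-voom, 40 in DESeq2 and 0 to 58 without single libraries. The causes were not tested. Replicate numbers are shared between the genotypes. Deviations of same-numbered libraries from their group means correlated at 0.0579 and 0.00203. With 2 KO libraries, the KO deviations mirror each other, so these values cannot decide whether libraries were paired. With the replicate block, 25 genes passed, and the log2 fold changes of Cdh5 (0.0019), Flt1 (0.010), Tie1 (−0.00099), Abcb1a (0.20) and Myl9 (0.068) took the opposite sign. In limma-voom, Tie1 (−0.056), Abcb1a (0.023), Vwf (−0.0088) and Cnn1 (−0.22) did so. Without single libraries the class medians lay between −0.32 and 0.34 for endothelial, −0.33 and 0.17 for pericyte and −0.30 and 0.23 for smooth muscle genes. The smooth muscle median, 0.02 as reported, was −0.016 in limma-voom and −0.00084 at a minimum count of 50, where 30 of the 33 genes were tested. Leaving out single libraries turned the sign of 26 of the 33 genes, whose log2 fold changes then ran as follows: Cldn5 −0.29 to 0.59, Cdh5 −0.55 to 0.10, Pecam1 −0.32 to 0.36, Esam −0.45 to 0.082, Flt1 −0.47 to 0.32, Kdr −0.30 to 0.996, Tek −0.32 to 0.52, Tie1 −0.57 to 0.43, Eng −0.33 to 0.51, Ptprb −0.32 to 0.48, Slco1a4 −0.19 to 0.61, Abcb1a −0.29 to 0.24, Ly6c1 −0.50 to 0.11, Ly6a −0.28 to 0.41, Itm2a −0.22 to 0.22, Vwf −0.52 to 0.49, Pdgfrb −0.20 to 0.23, Rgs5 −0.55 to 0.10, Higd1b −0.30 to 0.79, Abcc9 −0.61 to 0.049, Acta2 −0.18 to 0.34, Tagln −0.30 to 0.27, Myh11 −0.54 to 0.23, Cnn1 −1.41 to 0.71, Mylk −0.78 to 0.042 and Myl9 −0.22 to 0.16. Ocln, Tjp1, Jcad, Mfsd2a, Notch3, Ndufa4l2 and Tpm2 kept their sign without each library in turn. With 2 KO libraries, few counts limit Cnn1, Higd1b and Ndufa4l2 most.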

Other observations

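Perivascular macrophages lie along the vessels outside the barrier endothelium. Their 8 listed genes summed to 22.3 and 18.3 CPM in KO, against 19.0, 41.4 and 39.2 CPM in WT, so WT replicate 1 stood with the KO libraries. All 8 log2 fold changes were negative, with a median of −0.75. None passed in edgeR, DESeq2 or limma-voom, and 3 had an unadjusted p under 0.05: the transglutaminase gene F13a1 (−0.99, SE 0.30), the scavenger receptor gene Cd163 (−1.12, SE 0.44) and the hyaluronan receptor gene Lyve1 (−0.83, SE 0.35), the last of which was picked after its values were seen. Of all genes tested, 7.57% lay under that value. F13a1 had 4.72 and 4.06 CPM in KO, against 5.12, 10.9 and 10.2 CPM in WT. The KO libraries lay below WT without overlap for this gene, as for 12% of all genes tested, and WT replicate 1 lay just above them.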
